A study of Homo sapiens with 74 samples.

Results

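Aldehyde dehydrogenases are enzymes that oxidise aldehydes to carboxylic acids. The 8 genes described here, ALDH1A1, ALDH1A2, ALDH1A3, ALDH1B1, ALDH1L2, ALDH2, ALDH3A2 and ALDH9A1, were chosen from the 28131 genes of the K562 and HEL count tables as members of this family. They were picked because ALDH1A1 was nearly lost in the ENL knockout, so all values of the 8 genes in comparisons with the ENL knockout are given as a description, with no test. Another 11 genes of the family are in the tables and are described beside them.

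The family covers several pathways. The ALDH1A enzymes make retinoic acid from retinaldehyde, an irreversible step. Retinoic acid then acts through nuclear receptors (RAR with RXR) and is broken down by the CYP26 enzymes. In blood, high aldehyde dehydrogenase activity is a known property of haematopoietic stem and progenitor cells and is widely used to sort them. Other members clear acetaldehyde, fatty aldehydes or formyl-folate in mitochondria and the endoplasmic reticulum.

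Messenger RNA was sequenced in K562 and HEL, established human erythroleukaemia cell lines, in a study of the DOT1L complex in transcription. K562 groups were the control, labelled wild type, the DOT1L knockout (KO; genotype DOT1L-/-) and the ENL KO (genotype ENL-/-). HEL groups were a control and a DOT1L knockdown (KD). DOT1L is a histone H3 methyltransferase, and ENL (gene symbol MLLT1) is a reader of acetylated histones that associates with it. The labels name neither the knockdown reagent nor the way in which the knockouts were made, and they do not say whether a knockout line is a single clone. K562 had 2 distinct control libraries, since the third control column held the same counts as the second in every gene and was counted with it, 3 DOT1L KO and 3 ENL KO libraries. HEL had 2 libraries in each group. Nothing in the labels says that replicates came from separate cultures, so p-values measure only the spread between these libraries, which may be technical.

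A K562 library held 15404944 to 29236703 counts and a HEL library 12151495 to 12811688. The DOT1L transcript fell in the K562 DOT1L KO (log2 fold change -0.53) and in the HEL KD (-1.64), and MLLT1 fell in the ENL KO (-0.48), each with an adjusted p under the threshold in the edgeR test. All 9 erythroid markers examined were above 1 CPM (counts scaled with TMM factors to a common library total) in all 5 groups. Of 5 markers each of lymphoid, monocytic and epithelial cells, MS4A1, KRT5 and KRT14 were at 0 in all groups. Others were present, and the K562 control had mean levels of 688.5 CPM of KRT8, 344 CPM of KRT18, 120.3 CPM of EPCAM and 51.9 CPM of CD3D. A lane is given in the labels of K562 control and DOT1L KO libraries but not in those of the ENL KO, so a batch difference and the ENL knockout cannot be told apart. In RNA from whole cultures, fewer cells that express a gene and less RNA per cell cannot be told apart either.

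The retinaldehyde dehydrogenases lie on chromosomes 9 and 15. On GRCh38, as the deposited tables list them, ALDH1A1 spans chromosome 9, 72900662 to 72953317, on the minus strand. ALDH1A2 spans chromosome 15, 57953424 to 58065923, also on the minus strand, and ALDH1A3 spans chromosome 15, 100879692 to 100916625, on the plus strand. Exons of ALDH1A2 overlap those of LOC283665 and exons of ALDH1A3 overlap those of LOC101927751, in both cases on the opposite strand. Use of strand in the counting is not stated, so reads of these pairs cannot be told apart. No exon of the other 6 genes overlaps another gene in the table.

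RefSeq promoter sequences of GRCh38.p14 matched 6 of the 8 genes. Stretches of 30 bases are shown for the 3 retinaldehyde dehydrogenases, the group that holds ALDH1A1, and for ALDH3A2. ALDH3A2 was near 0 in the K562 control and not in the DOT1L KO. The stretches cover positions -40 to -11 from the start site, where a TATA box usually lies. Where the RefSeq table gives several start sites, for ALDH1A2 and ALDH3A2, the site nearest the deposited gene start is shown. They read 5′ to 3′ on the strand of the gene, and capitals mark each motif found on that strand.
ALDH1A1 (chr9:72953064-72953093, minus strand): ccgtgcagATAAAaaaggaacaaATAAAgc
ALDH1A2 (chr15:58065722-58065751, minus strand): gacacctgccTATATAcaggcgagcgcgcc
ALDH1A3 (chr15:100879791-100879820, plus strand): tggggcgctgcATAAAgcggcggggagctg
ALDH3A2 (chr17:19648711-19648740, plus strand): gccgcccaggCCAATaggggtgaggctttg
The motifs searched, each on both strands, were the TATA motif, the related ATAAA motif, the CCAAT box and the GATA motif bound by erythroid GATA factors. The ALDH1A1 stretch holds ATAAA 2 times. Its first copy overlaps a copy of GATA that is not capitalised apart from that overlap. The ALDH1A2 stretch holds overlapping copies of TATA, the ALDH1A3 stretch holds a copy of ATAAA, and the ALDH3A2 stretch holds a copy of CCAAT. Of 35116 promoters, 6.73% held TATA on either strand in the same window. The share was 7.12% for ATAAA, 4.08% for CCAAT and 7.15% for GATA. Upstream of this window, CCAAT lay on the gene strand at -74 of ALDH1A1, -62 of ALDH1A2 and -71 of ALDH1A3. In the 250 bases upstream, 18.1% of all promoters held CCAAT on that strand. The 250 bases upstream of the start site differed in composition. They were 38.4% G or C at ALDH1A1, 72.8% at ALDH1A2, 82.4% at ALDH1A3 and 73.2% at this ALDH3A2 start site, beside a median of 58% over all promoters. These matches are descriptions of the letters in these windows.

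ALDH1A1, a cytosolic retinaldehyde dehydrogenase, had 33.7 and 30.8 CPM in the K562 controls and 27.5, 32.6 and 28.3 CPM in the DOT1L KO. The ENL KO libraries had 0.531, 0.341 and 0.326 CPM, from 11, 7 and 5 counts. The DOT1L KO libraries overlapped the controls, while every ENL KO library lay far below every other K562 library. The fitted level of ALDH1A1 in the ENL KO was 78.3-fold lower than that of wild-type cells (log2 fold change -6.29, SE 0.17), and 11 of 14301 tested genes had a lower value in that comparison. This is the difference for which the genes were picked. The 3 ENL KO counts were above 3 counts per library, the most that a count of 0 would allow. Without ENL KO 1 the log2 fold change was -6.57, and without ENL KO 2 it was -6.17. In the DOT1L KO the log2 fold change of ALDH1A1 was -0.13 (SE 0.096). Its p, adjusted over all tested genes by Benjamini-Hochberg after the quasi-likelihood test of edgeR, was 0.287 and did not pass the threshold of 0.05. The adjusted p-values that follow come from the same edgeR test.

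In HEL, ALDH1A1 had 184 and 195 CPM in the controls and 79.8 and 76.2 CPM in the DOT1L KD. Both KD libraries lay below both controls. ALDH1A1 fell by 1.28 on the log2 scale (SE 0.045, edgeR adjusted p 3.18e-30) and stayed past the threshold under every alternative tried. Set side by side, the group means ran from 189.5 CPM in the HEL control over 78.0 CPM in the HEL KD, 32.2 in the K562 control and 29.4 in the DOT1L KO to 0.399 CPM in the ENL KO. Neighbours in that order were separated except the K562 control and DOT1L KO. The lines were counted in separate tables, by fragments in K562 and by reads in HEL, so the order between lines was not tested.

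ALDH1A2, the retinaldehyde dehydrogenase best known from the embryo, was the most abundant member in K562. It had 529 and 523 CPM in the controls, 153, 154 and 142 CPM in the DOT1L KO, and 350, 343 and 333 CPM in the ENL KO. No libraries of the 3 groups overlapped, and the DOT1L KO was the lowest group. ALDH1A2 fell by 1.81 in the DOT1L KO on the log2 scale (SE 0.054, edgeR adjusted p 2.46e-11), to a level 3.51-fold lower than in the control. Its log2 fold change was -0.62 in the ENL KO (SE 0.053), and the DOT1L KO lay 1.19 below the ENL KO (log2 difference -1.19). In HEL it had 7 counts in each control and 8 and 14 in the KD, between 0.555 and 1.14 CPM, and was too low to be tested there.

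The most abundant retinaldehyde dehydrogenase was ALDH1A2 in the K562 control and ALDH1A1 in the HEL control. Per kilobase of exonic length, ALDH1A2 was at 138 ± 1.27 CPM per kb (SD, n = 2) in the K562 control and ALDH1A1 at 13.6 ± 0.872. In the HEL control ALDH1A1 was at 80.0 ± 3.34 CPM per kb (SD, n = 2) and ALDH1A2 at 0.147 ± 0.000663. ALDH1A2 ranked 416th of 17992 genes with a count in the K562 control by this measure, and ALDH1A1 ranked 815th of 16520 in the HEL control. ALDH1A3, the remaining enzyme of the group, had 0 counts in all 8 K562 libraries and at most 3 counts in a HEL library, and was not tested in either line. A count of 0 allows up to between 0.101 and 0.195 CPM in a K562 library. This limit, 3 counts, covers counting error only.

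**Figure D1:**
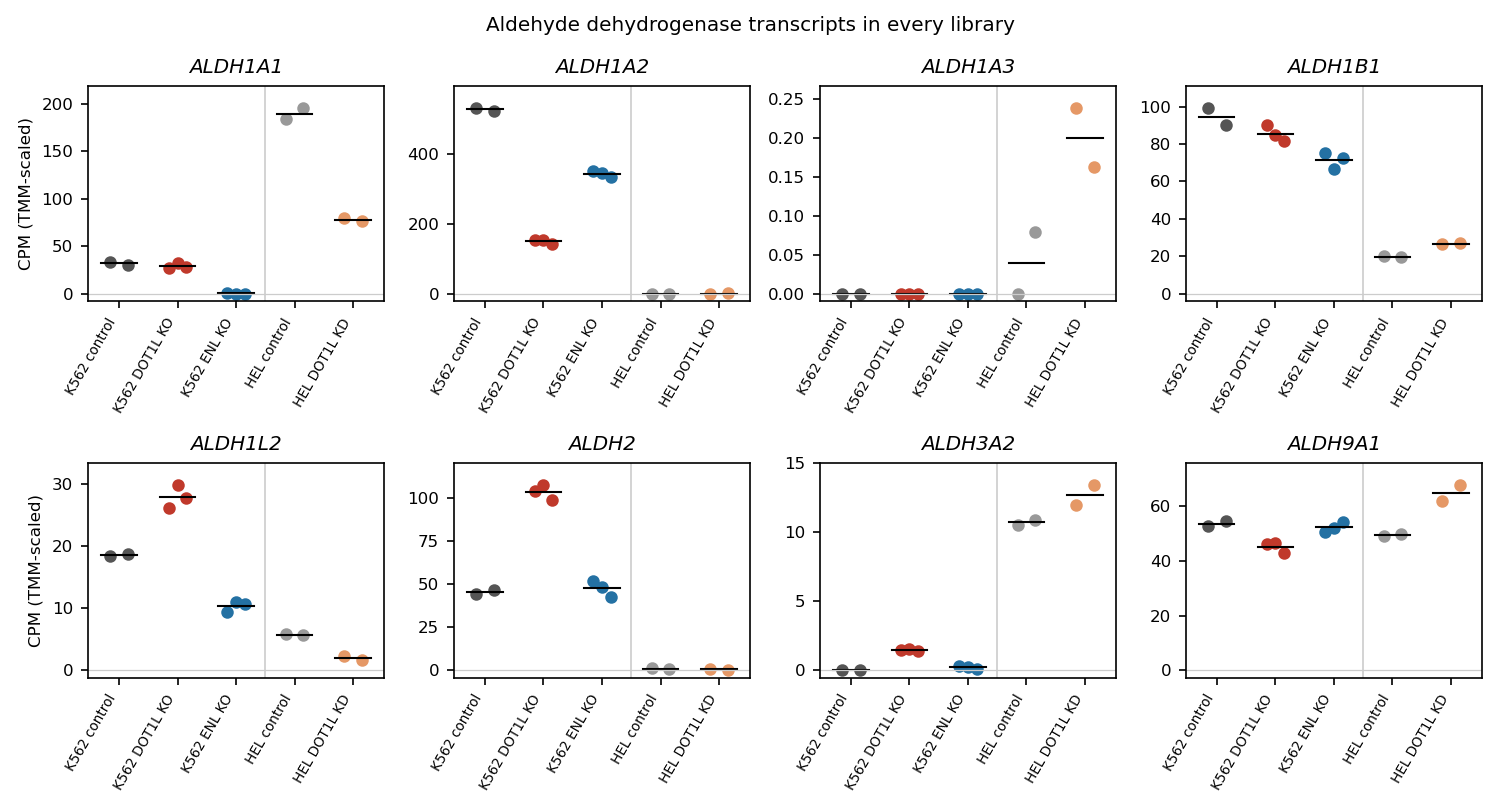
Level of each of the 8 genes in every library, in TMM-scaled CPM on a linear axis from 0 that differs between panels. Points are libraries, horizontal lines are group means, and the grey vertical line separates K562 from HEL. ALDH1A1 is near 0 only in the 3 ENL KO libraries, ALDH1A2 is lowest of the K562 groups in the DOT1L KO, and ALDH2 and ALDH1L2 are highest in the DOT1L KO.

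ALDH2 (chromosome 12, 111766887 to 111817531, plus strand), the mitochondrial enzyme that clears the acetaldehyde made from ethanol, rose in the DOT1L KO. It had 44.2 and 46.3 CPM in the K562 controls, 104, 108 and 98.9 CPM in the DOT1L KO and 51.9, 48.6 and 42.8 CPM in the ENL KO. All 3 DOT1L KO libraries lay above all others, and the ENL KO libraries fell on both sides of the controls. The log2 fold change was 1.20 in the DOT1L KO (SE 0.079, edgeR adjusted p 3.54e-08), a 2.29-fold higher level, and 0.08 (SE 0.080) in the ENL KO. HEL had little of this transcript, with 14 and 13 control counts against 8 and 6 in the KD. Both KD libraries were below both controls. It met the filter on low counts there only through the controls, so it is not counted among the tests in HEL.

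ALDH1B1 (chromosome 9, 38392664 to 38398665, plus strand), a mitochondrial relative of ALDH2, was the second most abundant of the 8 in the K562 control per kilobase (30.8 ± 2.03 CPM per kb, SD, n = 2). Its libraries had 99.1 and 90.3 CPM in the controls, 90.4, 84.6 and 81.6 CPM in the DOT1L KO and 75.0, 66.8 and 72.7 CPM in the ENL KO. The highest DOT1L KO library overlapped the controls, and all ENL KO libraries lay below both other groups. The log2 fold change was -0.15 in the DOT1L KO (SE 0.070, edgeR adjusted p 0.0978), which did not pass, and -0.41 (SE 0.071) in the ENL KO. In HEL the controls had 20.3 and 19.6 CPM and the KD 26.4 and 27.2 CPM. There ALDH1B1 rose by 0.43 (SE 0.091, edgeR adjusted p 7.46e-05).

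ALDH1L2 (chromosome 12, 105019784 to 105084563, minus strand) oxidises formyl-tetrahydrofolate in mitochondria and so belongs to one-carbon metabolism. In K562 it had 18.4 and 18.8 CPM in the controls, 26.2, 29.9 and 27.7 CPM in the DOT1L KO and 9.32, 11.0 and 10.7 CPM in the ENL KO. The knockouts lay on opposite sides of the controls, with no overlap between any groups. ALDH1L2 rose by 0.59 in the DOT1L KO (SE 0.094, edgeR adjusted p 0.000148), and its log2 fold change in the ENL KO was -0.84 (SE 0.10). Both comparisons use the same 2 control libraries. The direct difference, which does not use them, was 1.44 on the log2 scale (SE 0.090), higher in the DOT1L KO. In HEL, ALDH1L2 had 5.83 and 5.63 CPM in the controls and 2.38 and 1.63 CPM in the KD, from 73, 71, 30 and 20 counts. It fell there by 1.51 (SE 0.23, edgeR adjusted p 2.71e-07).

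ALDH3A2 (chromosome 17, 19648751 to 19677595, plus strand) is the fatty aldehyde dehydrogenase of the endoplasmic reticulum, whose loss causes Sjögren-Larsson syndrome. In K562 it had 1 count in each control, 33, 46 and 30 counts in the DOT1L KO and 6, 5 and 2 counts in the ENL KO. The DOT1L KO libraries, at 1.50, 1.55 and 1.42 CPM, were above all others in K562, and the controls were below the limit of 3 counts. It met the filter on low counts only through those libraries and so had to differ, and its change in K562 is given as a description, with no test. The ratio of summed counts, 109 in the KO to 2 in the control, was 32.0 after scaling. With 2 control counts it is fixed only loosely. The same ratio was 4.90 in the ENL KO, from 13 counts against 2, and is a description too. HEL had more of this transcript, with 10.5 and 10.9 CPM in the controls and 11.9 and 13.4 CPM in the KD. The KD libraries were above the controls, and the log2 difference of 0.24 (SE 0.13) did not pass (edgeR adjusted p 0.104). With upper-quartile scaling it did, at 0.32 (edgeR adjusted p 0.0325).

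ALDH9A1 (chromosome 1, 165662212 to 165698663, minus strand) oxidises trimethylaminobutyraldehyde, a step of carnitine synthesis, and varied least among the 8 across groups. In K562 it had 52.8 and 54.5 CPM in the controls, 46.2, 46.6 and 43.0 CPM in the DOT1L KO and 50.4, 52.1 and 54.4 CPM in the ENL KO. The DOT1L KO libraries were below the others, and the ENL KO and control libraries overlapped. ALDH9A1 fell by 0.24 in the DOT1L KO (SE 0.068, edgeR adjusted p 0.00839). Without K562 control 2 the log2 fold change was -0.23 and no longer passed (edgeR adjusted p 0.0692). Its log2 fold change in the ENL KO was -0.04 (SE 0.068). In HEL it had 49.2 and 49.9 CPM in the controls and 62.1 and 67.9 CPM in the KD, and rose by 0.39 (SE 0.060, edgeR adjusted p 1.84e-07).

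In K562, ALDH1A3 did not meet the filter on low counts and ALDH3A2 met it only through the DOT1L KO, which leaves 6 of the 8 genes. Of these, 4 passed the threshold in the DOT1L KO, with ALDH1L2 and ALDH2 higher and ALDH1A2 and ALDH9A1 lower. Over all genes tested in that comparison 51.1% passed, 26.9% higher and 24.2% lower, and the count of 4 of 6 is read against that share. The median log2 fold change of the 6 was -0.14, beside 0.01 over all genes. In HEL, ALDH1A2 and ALDH1A3 did not meet the filter and ALDH2 met it only through the controls, which leaves 5 genes. Of these 4 passed, ALDH1B1 and ALDH9A1 higher and ALDH1A1 and ALDH1L2 lower, beside 55.0% of all genes (27.0% higher, 28.0% lower). The median of the 5 was 0.24, and with ALDH2 it was -0.34, beside 0.01 over all genes. In the ENL KO, which chose the genes, 4 of the 6 had no overlap with the controls, all of them lower, beside 59.6% of all genes (28.8% higher, 30.8% lower). The median of the 6 was -0.51, beside 0.0028. Between the DOT1L KO and the ENL KO no libraries of the 6 overlapped, 4 being higher and 2 lower in the DOT1L KO, beside 63.3% of all genes (33.5% higher, 29.8% lower). Nothing is read from these ENL counts.

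**Figure D2:**
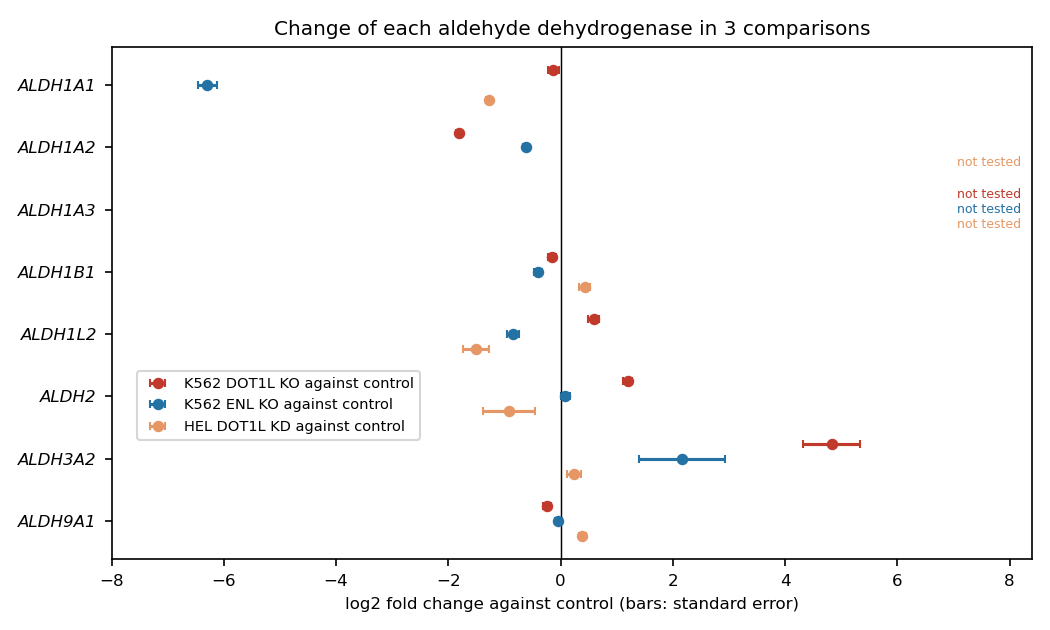
Log2 fold change against control of each gene in the K562 DOT1L KO, the K562 ENL KO and the HEL DOT1L KD, with bars of 1 standard error. ALDH1A1 is displaced furthest in the ENL KO (-6.29). The ALDH3A2 point in the DOT1L KO (4.83) is a fitted value that rests on 2 control counts and has no test. ALDH1L2 is above 0 in the DOT1L KO and below 0 in the HEL KD. ALDH2 is drawn likewise, but its HEL point rests on 14, 13, 8 and 6 counts and is not counted among the tests.

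The change on DOT1L depletion was compared between the lines by the interaction term of a joint edgeR model. The 4 genes that could be tested in both lines without resting on 1 group, ALDH1A1, ALDH1B1, ALDH1L2 and ALDH9A1, all passed, beside 38.9% of all 15367 genes. ALDH1L2 rose in K562 and fell in HEL, and ALDH9A1 fell in K562 and rose in HEL. The log2 fold change of ALDH1A1 was -1.28 in HEL and -0.13 in K562, with an interaction of -1.14 in the joint model (edgeR adjusted p 1.95e-08). In this test the line cannot be told apart from knockout against knockdown, or from fragment against read counting. The DOT1L transcript fell by 1.64 in HEL and by 0.53 in K562 on the log2 scale. Transcript levels do not give the DOT1L protein left, so the depth of depletion cannot be compared between the lines from them.

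Levels summed over all 19 family genes per kilobase differed between groups in total and in make-up. The sum was 280.9 ± 4.88 CPM per kb (SD, n = 2) in the K562 control, 175 ± 6.73 (SD, n = 3) in the DOT1L KO and 221 ± 6.45 (SD, n = 3) in the ENL KO. In HEL it was 209 ± 1.97 (SD, n = 2) in the control and 163 ± 3.22 (SD, n = 2) in the KD. In each line every depleted library lay below every control. Much of this fall lay in 1 gene per line. ALDH1A2 alone went from 138 CPM per kb in the K562 control to 39.4 with DOT1L knocked out. For the ENL KO its level was 90.1. ALDH1A1 alone went from 80.0 CPM per kb in the HEL control to 32.9 in the KD. Other members moved both ways, so the lower sum is not read as a fall of the family as a whole. ALDH1A2 made up 49.3 ± 0.402% of the sum in the K562 control, 40.7 ± 0.528% in the ENL KO and 22.5 ± 0.196% in the DOT1L KO. ALDH1A1 made up 4.84 ± 0.226% in the K562 control, 0.0758 ± 0.0194% in the ENL KO and 7.10 ± 0.603% in the DOT1L KO. In HEL the share of ALDH1A1 was 38.3 ± 1.24% in the control and 20.2 ± 1.07% in the KD. These shares include the values that chose the genes and are given without a test.

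**Figure D3:**
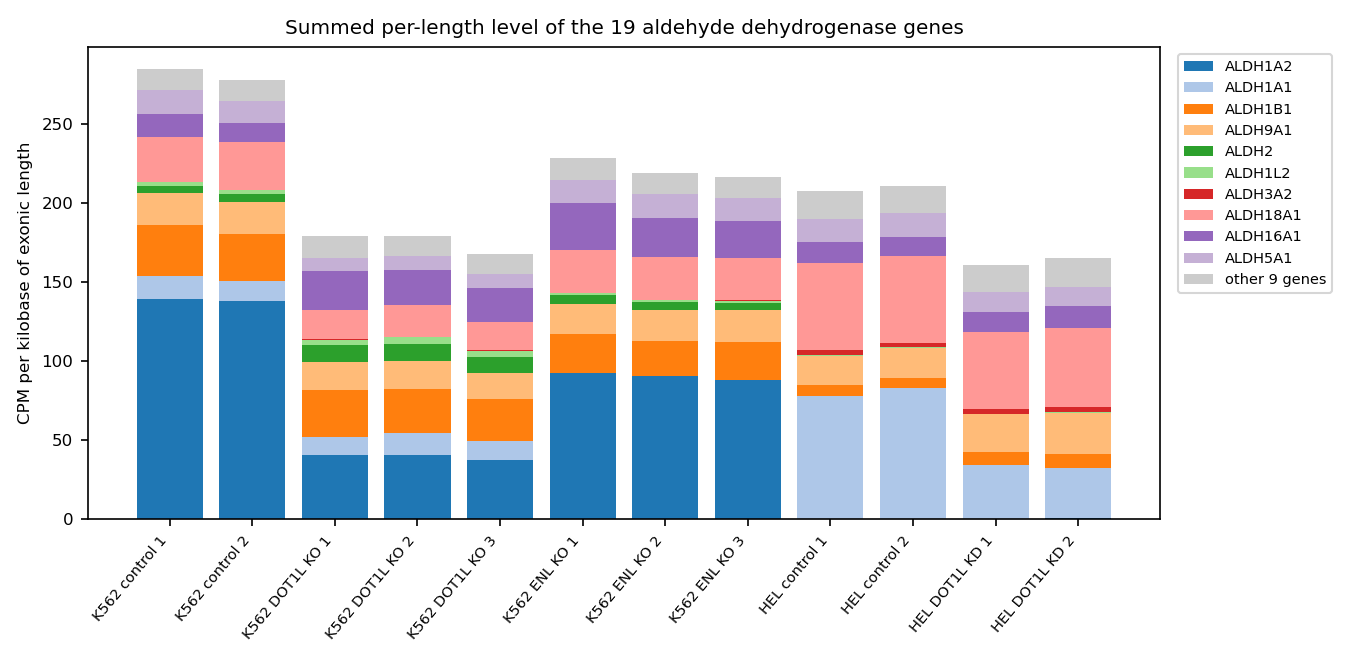
Stacked bars of the per-length level (CPM per kilobase of exonic length) of the 19 aldehyde dehydrogenase genes in every library, with 9 low genes drawn together. ALDH1A2 makes up 49.3% of the K562 control sum on average, and ALDH1A1 makes up 38.3% of the HEL control sum.

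Among the other 11 family genes, 6 met the filter in K562, ALDH1L1 only through the DOT1L KO. Of the other 5, 3 passed in the DOT1L KO, 1 higher and 2 lower, beside 51.1% of all genes. ALDH5A1, the succinate semialdehyde dehydrogenase of GABA breakdown, fell by 0.76 (SE 0.061, edgeR adjusted p 2.28e-07), and ALDH18A1, the first enzyme of proline synthesis from glutamate, fell by 0.63 (SE 0.062, edgeR adjusted p 1.71e-06). ALDH16A1 rose by 0.75 (SE 0.10, edgeR adjusted p 3.02e-05). ALDH1L1, the cytosolic counterpart of ALDH1L2, had 2 summed counts in the control and 42 in the KO. The scaled ratio of 12.3 rests on those 2 control counts and is given with no test. Of the 5, ALDH16A1 alone passed in the ENL KO, with a rise of 0.94 (SE 0.10, edgeR adjusted p 6.10e-06), beside 41.0% of all genes. With all 3 control columns, 2 passed there. In the HEL KD 5 of 8 passed, 2 higher and 3 lower, beside 55.0% of all genes, again without ALDH1L1, which met the filter only through the KD. ALDH6A1, of valine breakdown, fell by 0.57 and ALDH5A1 by 0.29 (edgeR adjusted p 7.87e-09 and 8.62e-06). ALDH4A1 and ALDH8A1 each rose by 0.73 (edgeR adjusted p 9.01e-06 and 0.0332). ALDH8A1 had 20 counts in each control and 27 and 39 in the KD. ALDH1L1 had 5 summed counts in the HEL control and 28 in the KD (scaled ratio 5.66, with no test).

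Of 29 genes that handle retinoids or carry the retinoic acid signal, 19 met the filter in K562, and 3 of these, CYP26B1, DHRS9 and RDH12, met it only through 1 group. Of the other 16, 4 passed in the DOT1L KO, 2 in each direction, beside 51.1% of all genes. Over all 19 the count was 6, which takes in CYP26B1 and DHRS9. Without the filter on low counts it was 10 of 25. The share of all genes in that run is not given here, so nothing is read from this count. FABP5, a lipid carrier that also binds retinoic acid, fell by 0.88 (SE 0.14, edgeR adjusted p 0.000157). DHRS4, a short-chain dehydrogenase that acts on retinoids, rose by 0.89 (edgeR adjusted p 0.00141). Control counts of DHRS9, of the same kind, were 4 and 12, against 66, 80 and 50 with DOT1L knocked out. CYP26B1, which degrades retinoic acid, had control counts of 55 and 43, DOT1L KO counts of 5, 9 and 4, and ENL KO counts of 3, 1 and 0. In both genes the DOT1L KO libraries did not overlap the controls, and no test is given. In the ENL KO 8 of the 16 passed, 7 of them lower, beside 41.0% of all genes in either direction and 22.2% lower. FABP5 fell there from 11.0 to 0.701 CPM (log2 fold change -3.92, SE 0.20, edgeR adjusted p 5.00e-09), and DHRS4 rose by 0.69 (edgeR adjusted p 0.0117). In the HEL KD 9 of 12 passed, 6 lower and 3 higher, beside 55.0% of all genes. RARG, a retinoic acid receptor, fell by 1.28 and CRABP1, a binding protein of retinoic acid, by 1.08 (edgeR adjusted p 3.15e-07 and 5.65e-05). RXRA, the partner of the RAR proteins, rose by 0.90, and STRA6, the receptor for retinol uptake, rose by 0.50 (edgeR adjusted p 0.00255 and 5.33e-06).

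Of 20 folate enzymes and carriers, the pathway of ALDH1L2, 19 were tested in K562. In the DOT1L KO 11 passed, 9 of them lower, beside 51.1% of all genes and 24.2% lower. The median log2 fold change of the 19 was -0.19, beside 0.01 over all genes. GCSH of the glycine cleavage system fell by 0.60 and MTHFD1L, which releases formate in mitochondria, by 0.43, while FPGS, which adds glutamates to folates, rose by 0.26 (edgeR adjusted p 7.54e-06, 2.37e-05 and 0.00212). In the ENL KO 8 of 19 passed, 6 lower and 2 higher, beside 41.0% of all genes. Without K562 control 1 the count was 5. MTHFD2L fell by 0.52 and MTHFD1L by 0.37 there, and MTHFD1 rose by 0.25 (edgeR adjusted p 0.00997, 0.000155 and 0.00419). In the HEL KD 10 of 18 passed, 6 lower and 4 higher, beside 55.0% of all genes. Without GLDC, which met the filter only through the controls, 9 of 17 passed. DESeq2, which called fewer of all genes in HEL, called 6 of the list. MTHFD1, the cytosolic enzyme that interconverts one-carbon forms of folate, fell from 221 to 141 CPM (log2 fold change -0.65, SE 0.039, edgeR adjusted p 3.36e-20), and GCSH rose by 0.56 (edgeR adjusted p 0.00447).

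Among 21 other enzymes that make or clear aldehydes, 11 were tested in each line. In the DOT1L KO 6 passed, 4 lower and 2 higher, beside 51.1% of all genes. AKR1B1, the aldose reductase, rose from 14.1 to 52.0 CPM (log2 fold change 1.89, SE 0.084, edgeR adjusted p 7.84e-10), and MAOA, which makes aldehydes from amines, rose by 0.79 (edgeR adjusted p 0.00386). ADH5, which clears formaldehyde, fell by 0.54, and TMLHE, the first enzyme of carnitine synthesis, fell by 0.60 (edgeR adjusted p 1.87e-05 and 0.000103). In the ENL KO 7 passed, 6 of them lower, beside 41.0% of all genes and 22.2% lower. Without K562 control 2 the count was 4. FAR2, which makes fatty alcohols, fell by 2.53 and MAOA by 0.92 (edgeR adjusted p 5.41e-06 and 0.00715). In the HEL KD 8 passed, 5 lower and 3 higher, beside 55.0% of all genes. DESeq2, which called fewer of all genes in HEL, called 5 of the list. MAOA fell there by 0.84 and AKR1A1 by 0.32, and SGPL1, the sphingosine phosphate lyase, rose by 0.61 (edgeR adjusted p 1.23e-12, 8.07e-09 and 0.000453).

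Marker genes of other cell types moved with some of these groups. The summed level of 5 monocyte and macrophage markers was 33.3 to 36.1 CPM in the K562 controls, 292 to 323 CPM in the DOT1L KO and 19.5 to 21.1 CPM in the ENL KO. It was 44.7 to 51.2 CPM in the HEL controls and 47.3 to 49.8 CPM in the KD. LYZ was the only marker of that list above 1 CPM in any group. The sum of 5 lymphoid markers was 53.9 to 55.6 CPM in the K562 controls, 17.3 to 21.8 in the DOT1L KO and 62.2 to 73.2 in the ENL KO, and 1.84 to 1.98 CPM in the HEL controls and 1.03 to 1.22 in the KD. CD3D alone was at 51.9 CPM in the K562 control, most of that sum. Of these 5 markers, 2 were above 1 CPM in the K562 control and DOT1L KO and 1 in each other group. The sum of 5 epithelial markers was 1148 to 1158 CPM in the K562 controls, 964 to 1069 in the DOT1L KO and 1217 to 1367 in the ENL KO, and 35.9 to 37.4 CPM in the HEL controls and 64.8 to 71.3 in the KD. The erythroid sum was 6122 to 6622 CPM in the K562 controls, 9169.7 to 9650.4 in the DOT1L KO, 6987 to 7221 in the ENL KO, 5340.4 to 5436 in the HEL controls and 7501 to 8179 in the HEL KD. The part of these shifts in the aldehyde dehydrogenase values was not tested.

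The genes whose K562 pattern was closest to that of ALDH1A1 were found by the root mean square difference in log2(CPM + 0.5), relative to each gene's control mean, over the 8 K562 libraries. Among the 10099 genes whose control mean reached 5 CPM, the closest were NAA11 (0.22), FAM84A (0.26), FN1 (0.47), ROBO2 (0.63) and CECR2 (0.69). FN1, which encodes fibronectin, had 802 ± 34.7 CPM in the control (SD, n = 2), 623 ± 28.7 in the DOT1L KO (SD, n = 3) and 35.6 ± 3.40 in the ENL KO (SD, n = 3). ROBO2, a receptor for SLIT guidance cues, had 17.9 ± 0.0163, 17.3 ± 1.16 and 0.518 ± 0.110 CPM in the same groups. In HEL, where ALDH1A1 was abundant, NAA11, FN1 and CECR2 had 0 counts in all 4 libraries, while ROBO2 had 91.0 ± 1.84 CPM in the control and 101 ± 3.51 CPM in the KD (SD, n = 2 each). With a pseudocount of 2, ROBO2 and CECR2 were no longer among the closest 5.

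**Figure D4:**
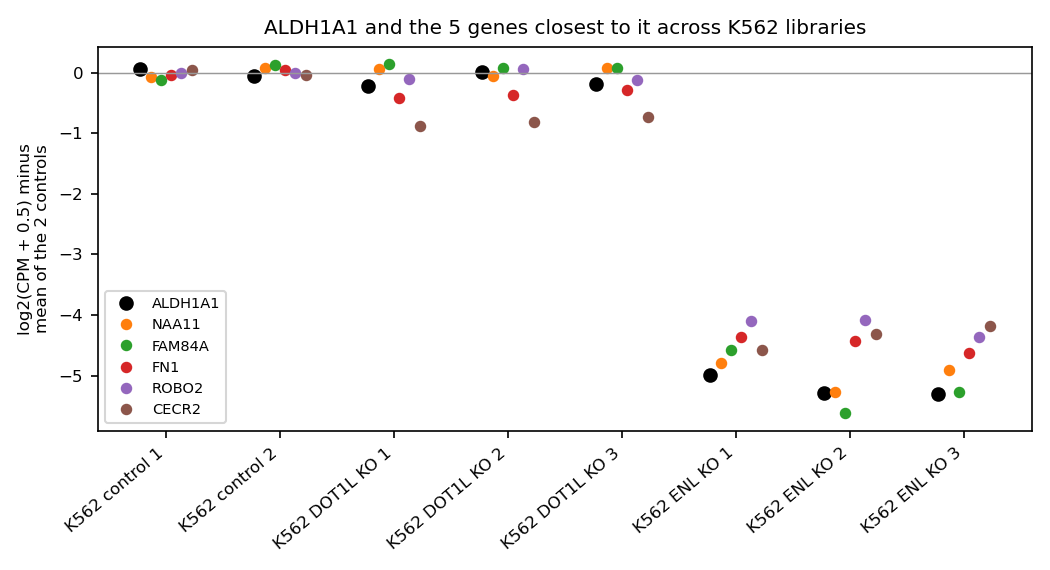
ALDH1A1 (black) and the 5 genes closest to it across the 8 K562 libraries, as log2(CPM + 0.5) minus the mean of the 2 controls. All 6 genes lie at least 4 log2 units below the controls in each ENL KO library, and CECR2 is lowest of the 6 in the DOT1L KO.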

How the data were processed

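The authors deposited counts of fragments per gene for K562 and counts of reads per gene for HEL, as whole numbers, with exon positions and exonic lengths, per the file headers. The submitters' processing notes name fastp 0.13.1, HISAT2 2.1.0, Bowtie2 2.3.4.1, featureCounts 1.6.1, deepTools and the builds hg38 and hg19. The exon positions lie on hg38. Use of strand in counting is not given in the sources used here. Per the labels' protocols, libraries were strand-specific and made from polyadenylated RNA. Of 74 samples, the 13 RNA-seq samples were used and 61 were not analysed here.

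The analysis used R 4.3.3. A gene was tested if it passed filterByExpr (edgeR 4.0.16) at a minimum count of 10 and a minimum total of 15, which left 14301 genes in K562, 12635 in HEL and 15367 in the joint model. A member or listed gene that met this filter only through the group where it was highest was left out of counts of passes where so stated. Counts were scaled with TMM factors and compared with edgeR's quasi-likelihood test, with 1 model for the 3 K562 groups and a separate model for HEL. Adjustment of p-values was by Benjamini-Hochberg across all tested genes, with a threshold of 0.05. The control columns with identical counts were used as 1 library, which left 8 K562 libraries. Standard errors come from the F statistic. The interaction of line and depletion was tested in a joint model.

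The members and gene lists were chosen with earlier results of these data known. The 4 lists were other family genes, retinoid genes, folate genes and other aldehyde enzymes. Of each list, up to 2 genes with the highest and 2 with the lowest log2 fold change are named, among those past the threshold whose libraries did not overlap, and the text gives most of these. ALDH4A1 is named in HEL as well, since ALDH1L1 met the filter there only through the KD. Alternatives were DESeq2 1.42.0, upper-quartile and library-size scaling, no filter, models of the 2 groups alone, a replicate block, all 3 control columns and leaving out each library. The procedure was tested on simulated data.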

Additional observations from a re-analysis of the deposited data

Results flagged for a closer look

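The change on DOT1L depletion was compared between HEL and K562 for 7 aldehyde dehydrogenases by the interaction term of the joint edgeR model, given here as the log2 change in HEL minus that in K562. The difference was -1.14 for ALDH1A1 (edgeR adjusted p 1.95e-08), 0.59 for ALDH1B1 (edgeR adjusted p 0.000254) and 0.65 for ALDH9A1 (edgeR adjusted p 1.44e-05). It was -2.08 for ALDH1L2 (edgeR adjusted p 3.20e-07). The other 3 values rest on few counts and are given without a test. The difference was -2.10 for ALDH2, from 14, 13, 8 and 6 counts in HEL, and 2.49 for ALDH1A2, from 7, 7, 8 and 14 counts there. For ALDH3A2 it was -4.54, with 1 count in each K562 control. The lines also differ in knockout against knockdown and in how reads were counted, and these cannot be told apart from the line.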

How the results depend on the processing

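No fold change of the 8 genes reversed under any alternative run. ALDH9A1 in the DOT1L KO lost its call without K562 control 2, and ALDH3A2 in HEL gained one with upper-quartile scaling (0.32). Over all genes, DESeq2 called 4561 in the HEL KD in place of 6951, and within the lists it called 6 folate genes and 5 aldehyde enzymes there. Without the filter, which lets in genes with few counts, 10 retinoid genes passed in the DOT1L KO. With all 3 control columns 2 other family genes passed in the ENL KO. Leaving out each library in turn gave 5 to 8 folate genes and 4 to 7 aldehyde enzymes in the ENL KO, and 5 to 6 aldehyde enzymes in the HEL KD. Where this left 1 control or KD library, that library is assumed to vary like the other groups. Shares of all genes in these runs are not given here, so the counts are not read as changes particular to the lists. With a pseudocount of 2, 3 of the 5 genes closest to ALDH1A1 stayed. The cause of these shifts was not tested.

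Same-numbered libraries correlated weakly in their deviations from the group means (between 0.0531 and 0.22 in K562, 0.00044 in HEL). All same-numbered K562 pairs were positive, while K562 pairs with different numbers ran from -0.158 to 0.0881. Not every library correlated best with its own number, and K562 control 2 also stands for the column with identical counts. Whether the numbers pair the samples cannot be decided from these values. With a replicate block, 8340 of 14301 genes passed in the DOT1L KO, beside 7305 without it. For the ENL KO 7021 of 14301 passed, beside 5863 without it. In the HEL KD 6903 of 12635 passed, beside 6951 without it. ALDH3A2 is left out of the K562 members here, since it met the filter only through the DOT1L KO. Of the 6 members left in K562, the 4 of the main model passed again in the DOT1L KO. There ALDH1B1 also passed (log2 fold change -0.13, edgeR adjusted p 0.0336). In the HEL KD, without ALDH2, 4 of 5 members passed.

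Depth limits ALDH1A3 in both lines, ALDH3A2 in the K562 controls, and ALDH1A2 and ALDH2 in HEL, where single counts move the values.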
